A study of Mus musculus with 13 samples.

Results

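The 9 genes described here are imprinted genes, or partners of an imprinted cluster, that were taken by name from the gene lists of the Parse Biosciences libraries: H19, Igf2, Igf2r, Kcnq1ot1, Meg3, Peg13, Cdkn1c, Grb10 and Plagl1. They make up 9 of the 57010 genes listed for each of the 2 kits. H19 was included because earlier results of these data placed it at the head of the CD4-CD8- double-negative (DN) cells, so its level in DN cells is given as a description without a test. The thymic samples came from untreated female C57BL/6N mice aged 2 months, whose thymic lobes were dissociated separately. The larger Parse kit (WT) held 4 lobes of 2 mice, named Parse sample 1 to 4, and the smaller kit (Mini) held 4 lobes of 2 further mice of the same strain, sex and age, named Mini sample 1-A, 1-B, 2-A and 2-B. Lobes of 1 mouse are not independent animals, so every spread below covers 4 lobes and only 2 mice. A further 16 samples, which the study calls unrelated and non-thymic, were barcoded in the same WT run. The labels speak of thymus and spleen, of young and adult mice, and of control and chronic stress for the pool of 20, and tie no tissue, age or treatment to any of the 16. These 16 samples appear here by range, median and pooled level, and in no test between groups. A pooled Airn level is set beside the thymic level as a description. The 10x libraries of the study were not analysed here.

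Imprinted genes are expressed from mainly 1 parental copy, and many sit in clusters under a shared control region. H19 is a maternally expressed long non-coding RNA that shares its enhancers with the paternally expressed growth factor gene Igf2. Igf2r encodes the receptor that takes up and clears that growth factor. Airn and Kcnq1ot1 are long non-coding RNAs transcribed from the paternal copy, each in antisense to a gene of its cluster, Igf2r and Kcnq1. H19 is abundant in fetal tissue and falls after birth in most organs, and it is known in adult blood formation from long-term stem cells. DN thymocytes are the earliest T cell precursors of the thymus, which pass from Kit-expressing progenitors to Il2ra-expressing cells before they gain Cd4 and Cd8.

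H19 (ENSMUSG00000000031) lies at chr7:142575529-142578143 on the minus strand of GRCm38, the build named for these files (GENCODE M21 annotation, whose identifiers matched the gene list for all 9 genes). It is shown here through the microRNA precursor it carries, because H19 is the gene on which the DN results turn and this hairpin is its best-known processed product. The mir-675 hairpin occupies chr7:142577064-142577147 on the minus strand and falls in an exon of 3 of the 7 annotated H19 transcripts. In the hairpin the capitals mark the mature arms, and in the mature sequences they mark the seed, bases 2 to 8 (RefSeq, GRCm38.p6).
mir-675 hairpin: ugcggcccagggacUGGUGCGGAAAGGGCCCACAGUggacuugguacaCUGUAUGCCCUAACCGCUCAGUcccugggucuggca
miR-675-5p: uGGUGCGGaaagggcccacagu
miR-675-3p: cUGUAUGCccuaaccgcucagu
Neither seed was found in another of the 1738 mature miRNAs of the same table. The libraries count polyadenylated and internally primed transcripts, not small RNA, so the amounts of these miRNAs were not measured.

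Igf2r lies at chr17:12682406-12769664 on the minus strand, and Airn starts inside it and runs the other way, at chr17:12741311-12860136 on the plus strand. Both promoters are shown because these overlapping genes moved apart in 1 of the 16 other samples described below. The 250 bases before each RefSeq start, which for Igf2r lies upstream of the GENCODE start given above, are printed 5′ to 3′ with every CG in capitals, at chr17:12769707-12769956 for Igf2r (minus strand) and chr17:12741061-12741310 for Airn (plus strand).
Igf2r promoter: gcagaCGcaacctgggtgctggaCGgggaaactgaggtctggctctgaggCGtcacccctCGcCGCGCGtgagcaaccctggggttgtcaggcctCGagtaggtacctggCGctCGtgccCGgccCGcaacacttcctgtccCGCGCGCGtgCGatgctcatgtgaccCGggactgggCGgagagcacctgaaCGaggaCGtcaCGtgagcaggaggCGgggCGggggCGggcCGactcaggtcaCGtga
Airn promoter: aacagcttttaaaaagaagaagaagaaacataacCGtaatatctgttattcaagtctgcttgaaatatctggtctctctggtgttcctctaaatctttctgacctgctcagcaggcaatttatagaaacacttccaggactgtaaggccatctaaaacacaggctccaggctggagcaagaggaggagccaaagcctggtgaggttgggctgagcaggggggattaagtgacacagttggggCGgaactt
The Igf2r window held 27 CG, as many as or more than which were found in 8.56% of 32851 promoters of that length, and the Airn window held 2, a number reached by 81.2% of them. Both strands read the same in this count, and the median promoter held 6.

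The remaining members lie on 5 chromosomes. Igf2 is at chr7:142650766-142666816 (minus), Cdkn1c, a cyclin-dependent kinase inhibitor gene, at chr7:143458339-143461050 (minus), and Kcnq1ot1 at chr7:143203458-143296549 (minus), inside the potassium channel gene Kcnq1 on the plus strand. Plagl1, a zinc finger transcription factor gene, is at chr10:13060504-13131694 (plus), Grb10, an adaptor gene that restrains insulin and growth factor receptors, at chr11:11930508-12038683 (minus), and the long non-coding RNA Meg3 at chr12:109541001-109571726 (plus). Peg13 is at chr15:72805600-72810324 (minus), inside Trappc9 on the same strand. No source used here states whether strand was used in counting, so reads of Igf2r and Airn, and of Kcnq1ot1 and Kcnq1, could not be told apart where the genes overlap.

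The deposited matrices hold unique molecular identifiers (UMIs) per gene and cell. The 4 WT thymic samples held 41838 cells (4178 to 15077 per sample) and 30450786 to 124106974 UMIs each, with a median of 3227 to 4263 UMIs per cell. The 4 Mini samples held 20085 cells, 28057164 to 33264104 UMIs each and medians of 2388 to 3221. Cells with 500 to 25000 UMIs, no more than 15% mitochondrial UMIs and no doublet call were kept, which left 37474 WT and 18302 Mini thymic cells. A barcode was shared with another sublibrary, one of the pools of cells that were amplified apart, by 34.9% of the 128624 cells of all 20 WT samples, by 21428 of the 41838 WT thymic cells and by 13.5% of Mini cells, among them 548 of the 1081 DN-like WT cells and 109 of the 227 kept WT cells and 24 of the 122 kept Mini cells that held an H19 UMI. Levels are given in CPM, the usual scaling of counts by library total, with ribosomal RNA left out of the total, summed over the cells of a class in a sample, and as mean ± SD over 4 samples.

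Cells were clustered without any imprinted gene, and a cluster was called after a thymocyte stage only where the markers of that stage led it. The DN-like class held 1081 WT cells (76, 312, 258 and 435 in Parse samples 1 to 4) and 442 Mini cells (93 to 124 per sample). All 8 DN markers were higher on average in it than in all other kept cells in WT, among them Il2ra, the interleukin 2 receptor alpha chain (791 ± 265 against 23.0 ± 2.64 CPM), the receptor gene Notch3 (311 ± 68.1 against 51.8 ± 10.6 CPM), Kit (93.2 ± 25.5 against 8.99 ± 1.31 CPM) and the Notch target Hes1 (56.4 ± 16.7 against 2.51 ± 0.551 CPM). The summed DN markers ranged from 1007 to 1821 CPM over the WT samples against 102 to 121 CPM elsewhere, and from 1468 to 1770 CPM against 97.5 to 117 CPM in Mini. The class was named from these same markers, so their levels describe it and are no check on the name. At least 1 UMI of Cd4, Cd8a or Cd8b1 was held by 783 of the 1081 WT cells and 311 of the 442 Mini cells. DN-like cells were also deep, with a median of 7903 UMIs in WT and 6573 in Mini against 2997 and 2520 in all other cells.

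H19 was high in DN-like cells and low or undetected in every later thymocyte class. In WT the DN-like level was 49.0, 38.3, 39.7 and 68.8 CPM in Parse samples 1 to 4 (48.9 ± 14.1), against 0.187, 1.45, 0.366 and 1.32 CPM in all other cells of the same samples (0.831 ± 0.647). In Mini it was 70.6, 70.3, 121 and 164 CPM in samples 1-A, 1-B, 2-A and 2-B (107 ± 45.3), against 0.757, 0.402, 0.866 and 1.02 CPM (0.762 ± 0.263). No DN-like sample came close to any of the others, and the ratio of the means was 58.9 in WT, where single samples gave 26.3 to 262, and 140 in Mini, where they gave 93.3 to 175. By the DN gate the ratio was 29.6 in WT and 33.1 in Mini, with cells over 25000 UMIs kept 18.9 and 55.7, and as a mean over cells 105 and 244. For the gate, the other cells were all kept cells outside it, which include DN-like cells. In Mini the gate held 94 of the 370 H19 UMIs, at a mean of 145 CPM, so its ratio is not one against later thymocytes alone. DN-like cells were 2.88% of kept WT cells and 5.44% of their UMIs, yet held 397 of the 528 H19 UMIs (75.2%). In Mini they were 2.42% of cells and 4.72% of UMIs and held 324 of 370 H19 UMIs (87.6%). These contrasts rest on the gene for which H19 was chosen and on cells that were clustered together, so no test is attached to them.

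**Figure D1:**
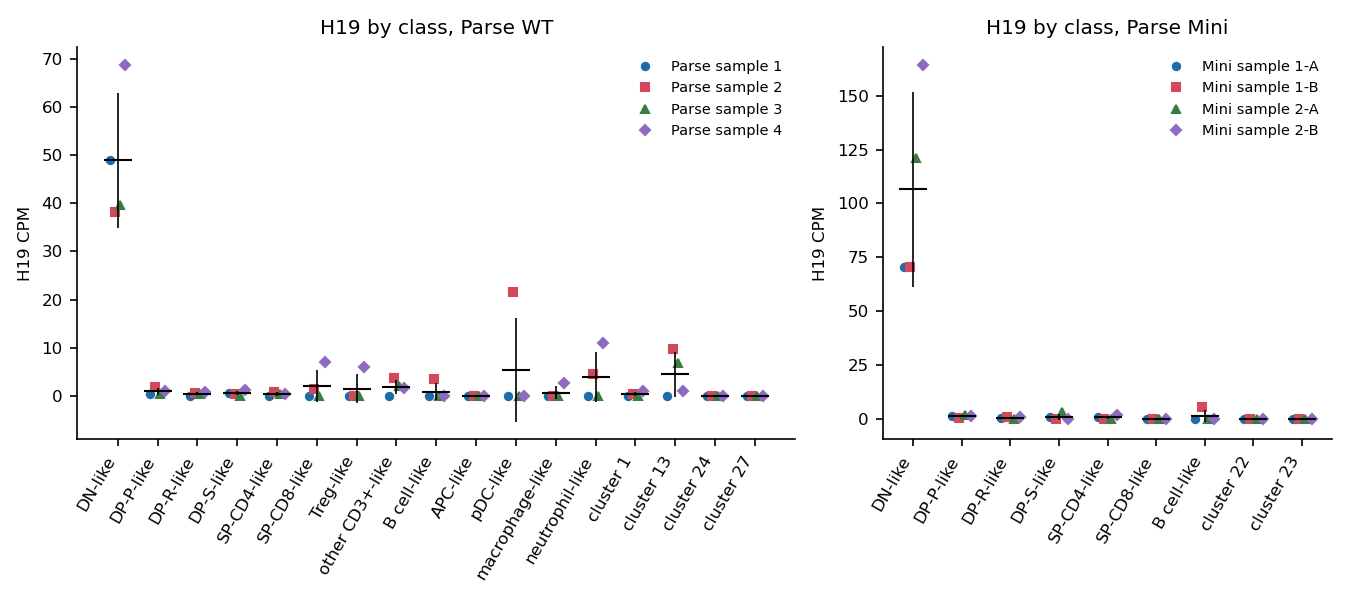
H19 level (CPM, vertical axis) in each cell class (horizontal axis) of at least 50 cells in the WT and Mini thymic samples; points are the 4 samples of a kit and bars the mean and SD. DN-like cells reach 38.3 to 68.8 CPM in WT and 70.3 to 164 CPM in Mini, and proliferating and resting double-positive cells stay below 2 CPM in all 8 samples.

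After the DN stage, thymocytes pass through a proliferating (DP-P) and a resting (DP-R) double-positive stage and a selected stage (DP-S) before they become single-positive (SP) cells. H19 was 0.939 ± 0.722 CPM in DP-P-like and 0.394 ± 0.319 CPM in DP-R-like WT cells, and 1.13 ± 0.527 and 0.459 ± 0.431 CPM in Mini. DP-S-like cells held 0.550 ± 0.460 CPM in WT and 0.957 ± 1.36 CPM in Mini, and SP-CD4-like cells 0.380 ± 0.347 and 0.593 ± 0.731 CPM. The ranges of these 4 classes overlapped. Within lobes, DP-P-like cells held more than DP-R-like cells in 4 of 4 WT and 3 of 4 Mini samples, with 56 against 15 UMIs over the WT samples and 24 against 10 over the Mini samples. That contrast was not tested. In WT, SP-CD8-like cells held 9 UMIs in 3 of 863 cells and Treg-like cells (regulatory T cells) 8 UMIs in 1 of 961 cells, whereas Mini SP-CD8-like cells held none in 546. WT cluster 13, a shallow cluster of 1287 cells led by erythroid genes, held 12 UMIs in 9 cells (4.42 ± 4.65 CPM). Among 24 mesenchymal-like WT cells, 1 cell of Parse sample 4 held 6 H19 UMIs and the other cells none. No H19 UMI was seen in APC-like (antigen-presenting) cells of either kit.

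The share of cells with an H19 UMI gave the same order. At full depth 134 of 1081 WT DN-like cells (12.4%, exact 95% interval 10.5 to 14.5) and 87 of 442 Mini DN-like cells (19.7%, 16.1 to 23.7) held at least 1 UMI. In B cell-like cells, taken as a type that should lack H19, 1 of 572 WT cells (0.175%, median 1463 UMIs) and 1 of 111 Mini cells (0.901%, median 4733 UMIs) did. With each cell thinned to 1000 UMIs, and 2 WT and 7 Mini DN-like cells left out as shallower, the expected share was 4.17% of DN-like cells in WT (6.27, 3.20, 2.97 and 5.22% by sample) and 7.68% in Mini (4.89, 6.13, 7.39 and 12.1%). In all other kept cells it was 0.0649% in WT and 0.0426% in Mini. The order at this depth was the same, as a description of the class for which H19 was chosen. These intervals cover counting error over cells only.

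The marker lists of other cell types were summed in DN-like cells as a check. The mesenchymal list reached 57.4 to 98.0 CPM in WT DN-like cells against 4.49 to 10.7 CPM elsewhere, and 45.6 to 90.0 CPM against 4.29 to 6.13 CPM in Mini. Nearly all of it was Pdgfrb, a growth factor receptor gene (73.6 ± 17.2 CPM in WT and 72.5 ± 21.4 CPM in Mini), while 3 of the 7 mesenchymal markers had no UMI in WT DN-like cells, the collagen gene Col1a1 among them, and 6 of 7 had none in Mini. The mast, basophil and progenitor list reached 113 to 148 CPM in WT against 9.19 to 11.2 CPM, through Kit, Cpa3 and Cd34, with Mcpt8, Fcer1a and Ms4a2 at 0 UMIs. The Treg list reached 223 to 326 CPM against 99.7 to 109 in WT and 187 to 274 against 81.8 to 92.4 in Mini, mostly through Ctla4 (210 ± 47.8 CPM in WT and 192 ± 33.8 in Mini), with Foxp3 at 27 UMIs in WT and 1 in Mini. The epithelial list (51.2 to 87.9 against 43.0 to 48.7 CPM in WT, with 4 of 7 markers at 0) and the NK list (24.4 to 29.3 against 16.3 to 22.0) were also above the other cells in both kits. The other CD3+ list reached 126 to 158 against 106 to 127 CPM in WT and 122 to 184 against 97.0 to 112 CPM in Mini, with the gamma-delta T cell receptor gene Trdc (85.0 ± 13.1 against 52.5 ± 4.24 CPM in WT) and Sox13 higher in 8 of 8 samples and Blk in 7 of 8. Zbtb16 went the other way (4.92 ± 2.82 against 20.5 ± 1.62 CPM in WT), higher in 0 of 4 WT and 1 of 4 Mini samples. Il2rb, Klrb1c and Tbx21 were higher in 0 of 4 samples of each kit. Klrd1 was higher in 0 of 4 WT and 1 of 4 Mini samples, and Cd160 in 2 and 1. The plasma cell, megakaryocyte and endothelial lists had higher maxima in DN-like cells in both kits, with overlapping ranges in WT. Their part in the H19 level was not tested.

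Within the DN-like class H19 was uneven. Of the 1081 WT cells, 947 held no UMI, 56 held 1, 26 held 2, 32 held 3 to 5 and 20 held 6 or more, up to 16 in 1 cell. In Mini, 355 of 442 held none and 17 held 6 or more, up to 30. A gene at 1 common level in every DN-like cell would, at these depths, have left a UMI in 29.2% of WT and 46.9% of Mini cells, against the 12.4% and 19.7% seen. Only 26 WT cells and 15 Mini cells held 50% of the H19 UMIs. The variance of the UMIs per cell was 5.42 times their mean in WT and 7.85 times in Mini. The same ratio was 3.17 and 3.10 for Kcnq1ot1, 1.51 and 1.57 for Igf2r and 1.23 and 1.56 for the pre-T cell receptor gene Ptcra, and it was higher than that of H19 for the proliferation gene Mki67 in both kits (10.5 and 15.7) and for Il2ra in WT (6.31) but not in Mini (7.03).

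**Figure D2:**
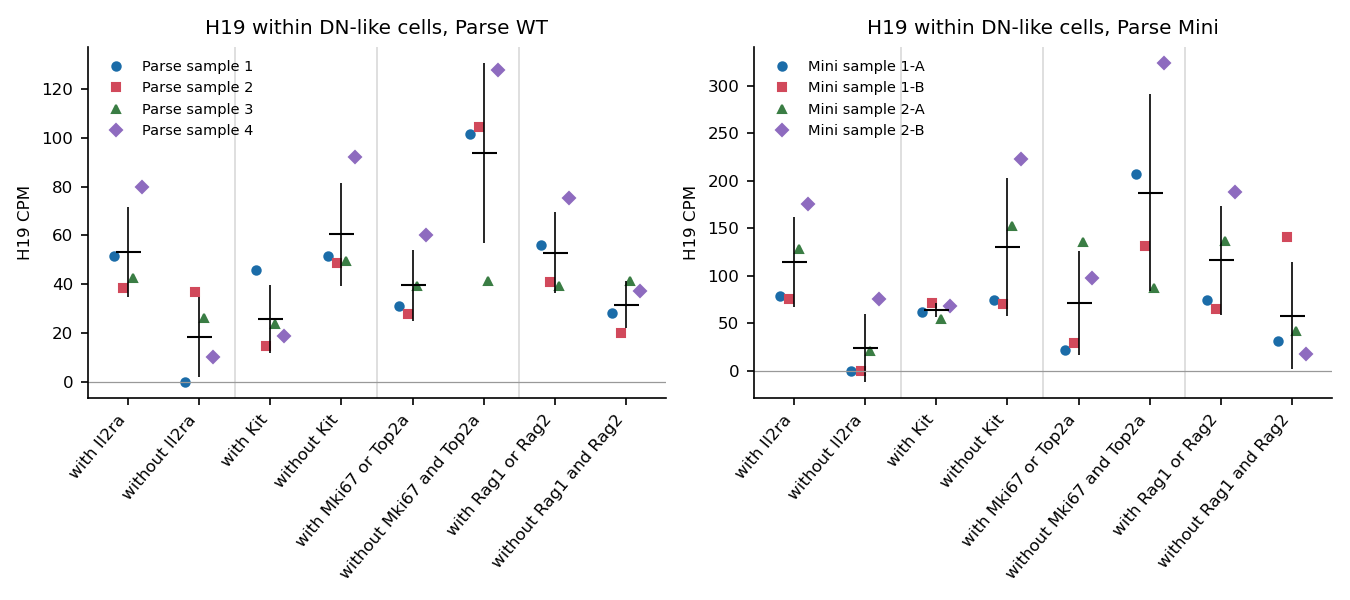
H19 level (CPM, vertical axis) in DN-like cells split by whether a cell held a UMI of the genes named on the horizontal axis; points are the 4 samples of each kit and bars the mean and SD. Cells with Il2ra lie above cells without it in all 8 samples, while the split by Mki67 or Top2a is reversed in Mini sample 2-A.

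Cells that held an Il2ra UMI carried more H19. In WT they held 51.6, 38.6, 42.7 and 79.7 CPM (53.2 ± 18.5, 891 cells), and DN-like cells without Il2ra held 0, 36.8, 26.3 and 10.0 CPM (18.3 ± 16.4, 190 cells). In Mini the levels were 78.4, 75.7, 128 and 176 CPM (115 ± 47.4, 400 cells) against 0, 0, 20.1 and 75.4 CPM (23.9 ± 35.6, 42 cells). Cells with Il2ra were higher in all 8 samples, although Parse sample 2 separated them by less than 2 CPM, and the subset without Il2ra was small, with 25 H19 UMIs in WT and 8 in Mini. Il2ra is a marker of the DN group for which H19 was chosen, so this split follows that choice and is a description only.

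Cells with a UMI of Kit, which marks the earliest progenitors, carried less. They held 25.7 ± 14.0 CPM against 60.5 ± 21.1 CPM without Kit in WT, lower in all 4 samples, and 63.8 ± 7.65 against 130 ± 72.7 CPM in Mini, lower in 3 of 4. Cells without Mki67 and Top2a, both genes of dividing cells, held 102, 105, 41.3 and 128 CPM in WT (93.8 ± 36.9) against 31.0, 27.8, 39.2 and 60.2 CPM in cells with either (39.6 ± 14.6). The gap was wide in Parse samples 1, 2 and 4 and was about 2 CPM in Parse sample 3. Mini showed 207, 131, 87.4 and 324 CPM without (187 ± 104) and 22.0, 29.4, 136 and 97.5 CPM with (71.2 ± 54.9), with sample 2-A in the opposite order. Cells with either gene were deeper (median 9687 against 4769 UMIs in WT), and the part of depth in these splits was not tested. Cells with a UMI of the recombination genes Rag1 or Rag2 held 52.9 ± 16.7 against 31.6 ± 9.53 CPM in WT and 116 ± 57.8 against 57.7 ± 56.2 CPM in Mini, with Parse sample 3 and Mini sample 1-B in the opposite order.

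A finer clustering, again without imprinted genes, split a Kit-high, Cd34-high cluster from the rest of the DN-like cells. That cluster stayed unnamed by the marker lists in both kits. It was not without Il2ra, which stood at 499 CPM in WT and 479 CPM in Mini, against 734 and 1100 CPM in the larger cluster. In WT, 129 cells with Kit at 322 CPM, Cd34, a stem and progenitor surface gene, at 95.6 CPM and the adhesion gene Cd44 at 247 CPM held 2 H19 UMIs, both in 1 cell (2.20 CPM). The other 952 WT cells, with Notch3 at 353 CPM and Kit at 51.7 CPM, held 395 UMIs (59.3 CPM). In Mini, 32 cells with Kit at 421 CPM and Cd34 at 152 CPM held no H19 UMI, which allows up to 13.4 CPM over the pool (3 counts), and the cluster of 408 cells held 324 UMIs (119 CPM). The near-absence in the Kit-high, Cd34-high cells was seen in both kits, from 6 to 48 such cells per WT sample and 6 to 9 per Mini sample. In these Kit-high clusters Kcnq1ot1 stood at 467 CPM in WT and 596 CPM in Mini, not below the 422 and 477 CPM of the remaining DN-like cells. Igf2r was at 40.6 and 58.2 CPM there, from 37 and 13 UMIs, against 88.2 and 92.8 CPM.

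Over the 9 WT sublibraries the DN-like level of H19 ranged from 0 to 88.4 CPM with a median of 39.8, from 6 to 161 DN-like cells each, and the 2 Mini sublibraries gave 103 and 114 CPM. A gate on raw UMIs, with Il2ra present and Cd4, Cd8a, Cd8b1 and the Treg gene Foxp3 absent (the DN gate, 387 WT and 192 Mini cells), gave 88.4, 84.6, 23.0 and 110 CPM in WT (76.4 ± 37.3) and 161, 104, 37.8 and 278 CPM in Mini (145 ± 102). Sample 3 of WT and sample 2-A of Mini were the lowest by this gate, and all 8 samples were above their other cells.

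The genes whose class levels were most like those of H19 were found by Pearson correlation of log2(CPM + 1) over classes. Over 17 WT classes and 12610 genes they were Erg (r = 0.842), a transcription factor gene of stem and progenitor cells, Grm4, Nckap5, Gm4632 and Drc7 (0.818). Over 9 Mini classes and 10822 genes they were Erg again (0.965), Plekha7, the cell cycle kinase gene Cdk6, Ccdc171 and Afap1l1 (0.948). By Spearman correlation 0 of the 5 stayed among the nearest in either kit. Erg stood at 145 CPM in WT DN-like cells against 45.8 CPM in the next class, and at 164 against 5.19 CPM in Mini. Erg was higher in the Kit-high cells (369 CPM in WT) than in the other DN-like cells (114 CPM), the opposite of H19 within the class. Kcnq1ot1 correlated with H19 at 0.433 in WT and 0.743 in Mini and Igf2r at -0.144 and -0.218. These are descriptions over classes that share libraries, and the values without the DN-like class were not computed.

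Igf2, the neighbour of H19, was close to absent. It had 14 UMIs in 11 kept WT cells and 7 UMIs in 6 kept Mini cells, of which DN-like cells held 3 in each kit. An H19 UMI was present in 2 of the 11 and 2 of the 6 cells. H19 and Igf2 were thus not detected at matched levels in these thymocytes, at a depth at which H19 had 528 and 370 UMIs.

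Kcnq1ot1 was detected in every class and was highest in DN-like cells among the classes of at least 50 cells. In WT the DN-like level was 556, 430, 356 and 434 CPM (444 ± 82.9) against 351, 358, 296 and 328 CPM in all other cells (333 ± 27.8). In Mini it was 440, 415, 501 and 572 CPM (482 ± 69.8) against 381, 397, 389 and 381 CPM (387 ± 7.68). The DN-like value was the higher one within each of the 8 samples. DP-P-like cells came next in both kits (359 ± 28.7 and 443 ± 16.4 CPM), and SP-CD8-like cells were lowest among the T lineage stages (269 ± 33.7 and 308 ± 42.4 CPM). In WT, Kcnq1ot1 was lower still in macrophage-like (220 ± 56.6 CPM) and APC-like cells (212 ± 26.2 CPM). Its host gene Kcnq1 was scarce, at 13.7 ± 7.21 CPM in WT and 12.3 ± 4.75 CPM in Mini DN-like cells against 10.7 ± 2.26 and 9.63 ± 0.340 CPM in all other cells, higher in 3 of 4 samples of each kit.

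Igf2r showed the other order. DN-like cells held 112, 63.3, 95.8 and 81.3 CPM in WT (88.2 ± 20.9) against 125, 84.7, 97.8 and 91.3 CPM in all other cells (99.7 ± 17.8). In Mini they held 82.4, 96.1, 80.6 and 96.9 CPM (89.0 ± 8.69) against 113, 107, 109 and 119 CPM (112 ± 4.94). The DN-like value was the lower one in each of the 8 samples, and the sample ranges overlapped in WT but not in Mini. Most mature classes were among the highest, with 140 ± 26.3 CPM in Treg-like, 128 ± 12.1 in SP-CD8-like and 128 ± 23.8 in SP-CD4-like WT cells and, in Mini, 144 ± 5.24 CPM in SP-CD4-like cells and 147 ± 33.8 CPM in cluster 22. Mini SP-CD8-like cells, at 121 ± 8.11 CPM, were level with DP-R-like cells (121 ± 9.63 CPM). The sample ranges of the 3 named mature WT classes overlapped. B cell-like cells were low in both kits (59.6 ± 13.7 and 60.8 ± 25.6 CPM), and WT pDC-like cells (plasmacytoid dendritic) were lower (26.2 ± 22.7 CPM, 14 UMIs).

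**Figure D3:**
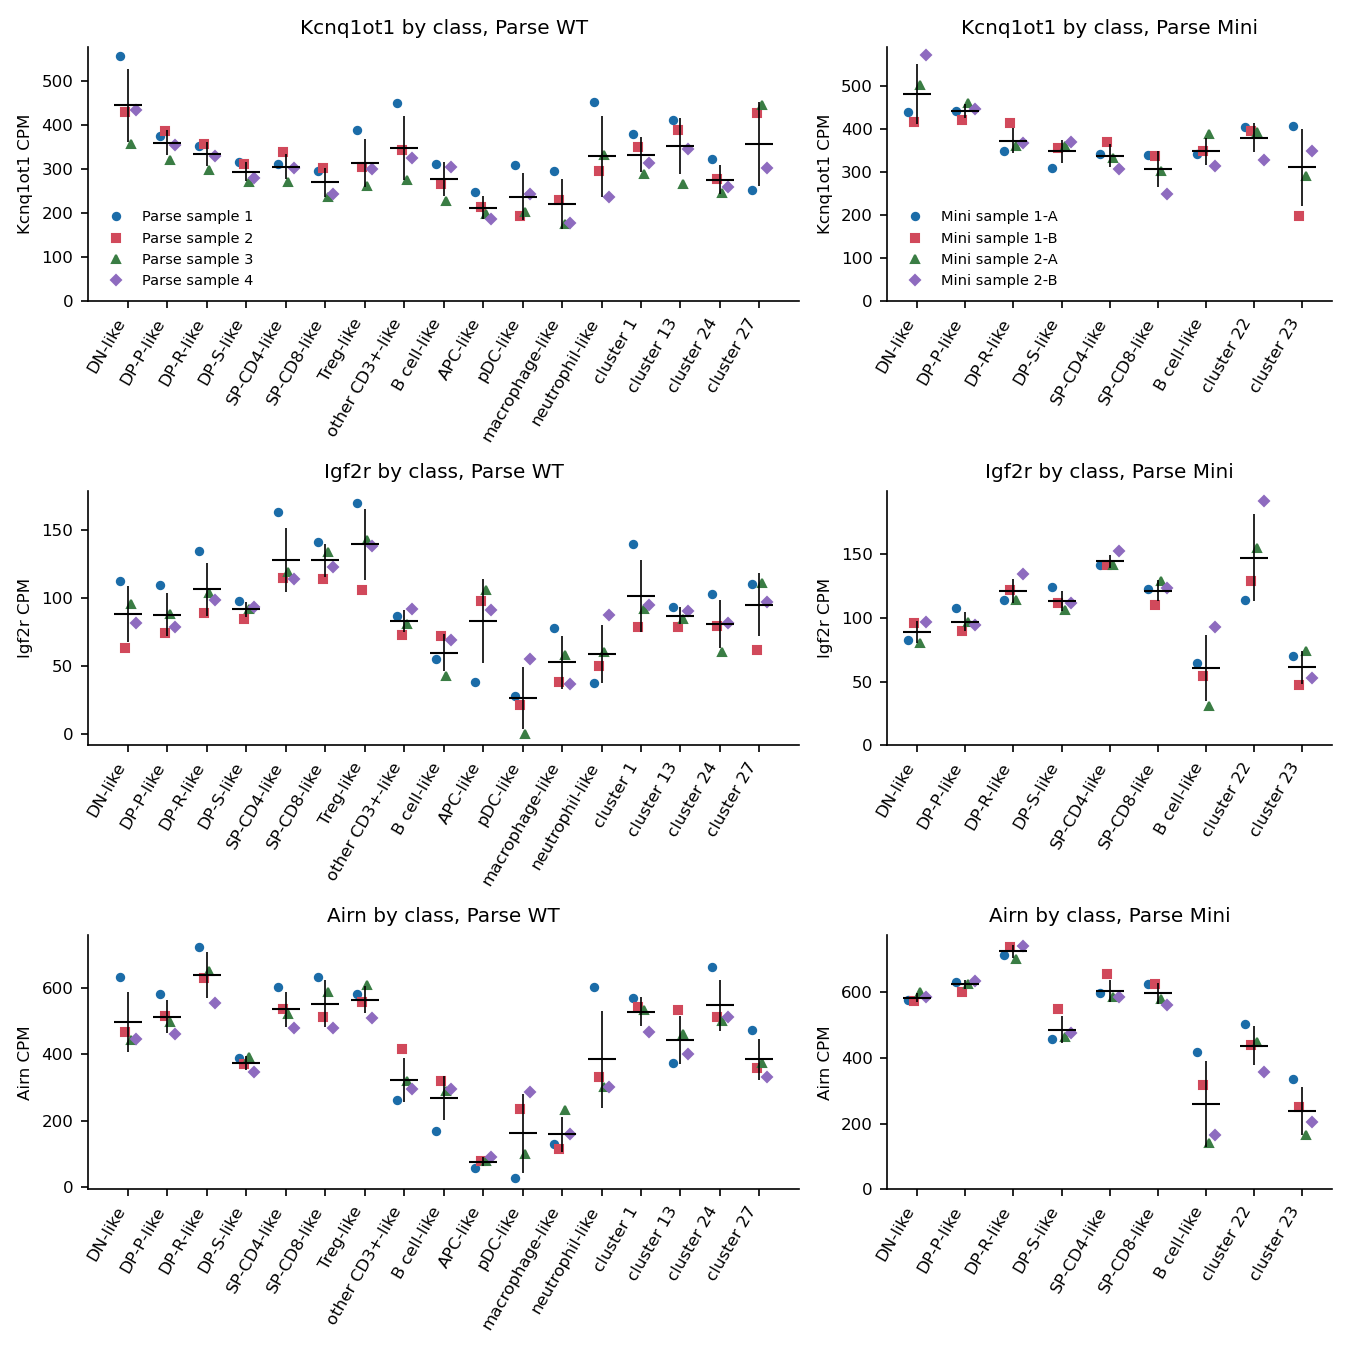
Levels (CPM, vertical axes) of Kcnq1ot1, Igf2r and Airn in each cell class (horizontal axes) of at least 50 cells in the WT and Mini thymic samples; points are the 4 samples of a kit and bars the mean and SD. Kcnq1ot1 averages 444 and 482 CPM in DN-like cells, Igf2r reaches its WT high of 140 CPM in Treg-like cells, and Airn averages 638 and 724 CPM in DP-R-like cells.

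Airn, which overlaps Igf2r in antisense, was highest, among classes of at least 50 cells, in DP-R-like cells in both kits (638 ± 69.5 CPM in WT, 724 ± 19.4 in Mini), where Igf2r was intermediate (106 ± 19.7 and 121 ± 9.63 CPM). DN-like cells held Airn at 497 ± 90.5 and 584 ± 12.8 CPM. WT APC-like cells held the least (76.4 ± 14.0 CPM), with Igf2r at 83.2 ± 30.6 CPM. Per kilobase of gene span, the DN-like level of H19 was 18.7 CPM in WT and 40.8 in Mini, that of Kcnq1ot1 4.77 and 5.18, that of Airn 4.18 and 4.91 and that of Igf2r 1.01 and 1.02. Per kilobase of annotated exon, Igf2r was at 9.48 and 9.56 CPM, H19 at 19.9 and 43.3 and Airn at 138 and 162. The order of H19 and Igf2r thus held on both scales, while Airn passed above H19 and Igf2r above Kcnq1ot1 on the exon scale. The study reports unspliced as well as spliced transcripts in Parse data, so counts need not lie in exons. Annotated exons cover 3.6 of 118.8 kb in Airn and all 93.1 kb of Kcnq1ot1, so the order on the exon scale depends on the length used.

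The other members were scarce. Cdkn1c had 208 kept UMIs in WT and 77 in Mini and stood at 2.17 ± 0.610 CPM in DP-P-like WT cells, where 116 of its UMIs lay, and at 1.08 ± 1.05 CPM in DN-like cells. In Mini it was 1.63 ± 0.412 CPM in DP-P-like, 1.63 ± 0.575 in DP-S-like and 0.336 ± 0.672 CPM in DN-like cells. Among classes of at least 50 cells its pooled level was highest in WT other CD3+-like cells (3.86 CPM) and Mini cluster 22 (2.59 CPM, 2 UMIs). Plagl1 had 150 and 71 kept UMIs and, among classes of at least 50 cells, was highest in WT Treg-like cells (6.30 ± 4.36 CPM, 28 UMIs) and in Mini cluster 22, 205 cells led by the innate-like T cell gene Zbtb16 (20.7, 3.92, 12.9 and 83.7 CPM, 21 UMIs in 12 cells). Mini sample 2-B set most of that mean. The 24 mesenchymal-like WT cells held 12 further Plagl1 UMIs. In DN-like cells Plagl1 was at 0.714 ± 0.500 and 1.32 ± 1.01 CPM, with 4 UMIs in each kit, against 1.14 ± 0.285 and 1.11 ± 0.409 CPM in all other cells. By the DN gate it was at 2.73 ± 3.64 CPM in WT (4 UMIs) and 6.08 ± 8.96 CPM in Mini (3 UMIs), so its order was not settled at this depth.

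Meg3 and Grb10 were dense in the few mesenchymal-like cells of WT. Of 41 kept Meg3 UMIs in WT, 27 lay in 7 of the 24 mesenchymal-like cells, 24 of them in Parse sample 4 and 3 in the others, and Mini, in which no such class was formed, held 3 in all. Grb10 had 62 kept UMIs in WT, of which 28 lay in 8 of the same 24 cells (20 in Parse sample 4) and 15 in 7587 DP-P-like cells, and 14 in Mini, 7 of them in DP-P-like cells. DN-like cells held 3 Meg3 UMIs and 4 Grb10 UMIs in WT and 0 and 1 in Mini. Peg13 had 0 UMIs in all 41838 WT and 20085 Mini thymic cells, while Trappc9, which surrounds it on the same strand, had 28049 and 14643 kept UMIs, and no source used here states how reads in the shared span were assigned.

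Later stages were compared by test with gates on raw UMIs that use no imprinted gene. Resting DP cells held Cd4, a Cd8 chain and a Rag gene and no Mki67, Top2a or Il2ra. Cycling DP cells held Cd4, a Cd8 chain, Mki67 and Top2a and no Il2ra, and mature cells held a Cd3 chain and Ccr7 or S1pr1, receptor genes of cells that move to the medulla and out of the thymus, and no Rag gene, Mki67, Top2a, Cd79a or H2-Aa. UMIs were summed per lobe and gate and tested by edgeR's quasi-likelihood test with the lobe as a block and Benjamini-Hochberg adjustment over all genes that passed the filter on low counts. Only Igf2r and Kcnq1ot1 of the 9 members passed that filter, so the other 7 were not tested.

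Cycling DP cells held less Igf2r and more Kcnq1ot1 than resting DP cells in both kits. Igf2r was at 112, 78.2, 95.6 and 83.6 CPM in cycling and 141, 94.7, 108 and 101 CPM in resting WT cells, lower in 4 of 4 samples (log2 fold change -0.22 ± 0.05 SE, adjusted p = 0.00165, edgeR). In Mini it was at 111, 86.7, 94.6 and 100 CPM against 119, 124, 124 and 134 CPM, again lower in 4 of 4 and without overlap of the groups (-0.37 ± 0.06, adjusted p = 1.51e-06, edgeR). Both changes were small on a scale on which 51.1% of the 11944 genes tested in WT and 52.1% of the 11381 in Mini were called, and 2 members are too few to read against that background. Kcnq1ot1 was at 359, 370, 303 and 338 CPM in cycling and 340, 351, 294 and 313 CPM in resting WT cells, higher in 4 of 4 (0.12 ± 0.03, adjusted p = 0.00740, edgeR). The WT call was lost without Parse sample 3 (adjusted p = 0.0629) or Parse sample 4 (adjusted p = 0.163) and with DESeq2 (adjusted p = 0.103). In Mini it was at 408, 395, 434 and 404 CPM against 334, 383, 340 and 372 CPM, higher in 4 of 4 without overlap (0.19 ± 0.04, adjusted p = 0.000364, edgeR). Airn fell with Igf2r in both kits (-0.21 ± 0.03 and -0.21 ± 0.04, adjusted p = 3.15e-05 in WT, edgeR). Cycling cells were deeper (median 8466 to 11365 against 2586 to 3483 UMIs per cell in WT), and with cells of at least 2000 UMIs only the WT changes were -0.22 for Igf2r and 0.14 for Kcnq1ot1.

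**Figure D4:**
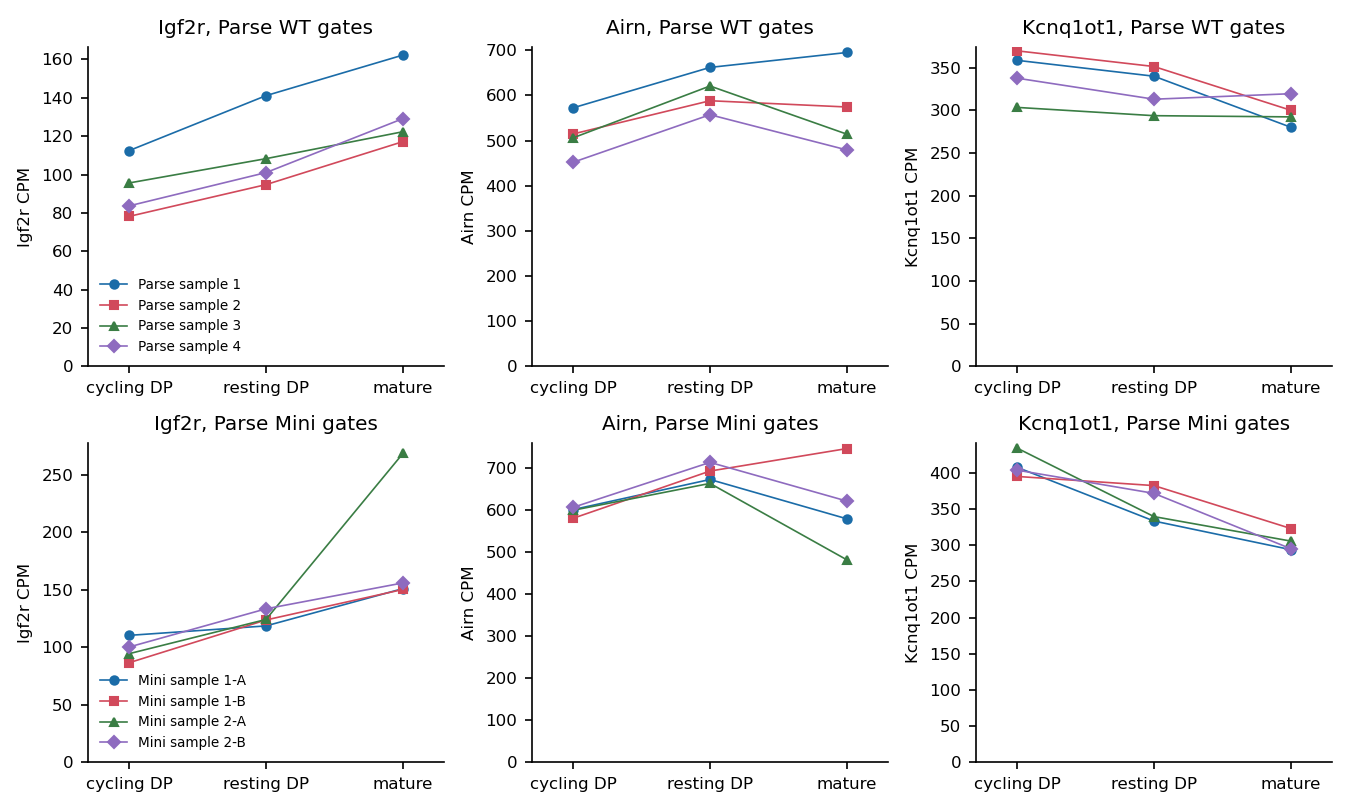
Igf2r, Airn and Kcnq1ot1 levels (CPM, vertical axes) in the cycling DP, resting DP and mature gates (horizontal axes) of each kit; each line joins the 3 gates of 1 sample. Igf2r rises from cycling to resting DP cells in all 8 samples, and Mini sample 2-A stands apart among the mature cells at 269 CPM.

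Mature cells tended to the opposite side for both genes, and only Mini passed the test. Igf2r was at 151, 150, 269 and 156 CPM in Mini mature cells against 119, 124, 124 and 134 CPM in resting DP cells (log2 fold change 0.43 ± 0.14, adjusted p = 0.0106, edgeR). Sample 2-A decided this call, since without it the change was 0.20 with an adjusted p of 0.427 (edgeR). Kcnq1ot1 was at 294, 323, 306 and 295 CPM in mature against 334, 383, 340 and 372 CPM in resting Mini cells, lower in 4 of 4 (-0.31 ± 0.10, adjusted p = 0.0131, edgeR), and the call was lost without sample 1-B (adjusted p = 0.0548) or 2-B (adjusted p = 0.0997). The background was 30.2% of 9102 genes called in Mini (15.7% higher and 14.5% lower) and 33.8% of 9839 in WT (18.1% higher and 15.6% lower). In WT, Igf2r was higher in mature cells in 4 of 4 samples (162, 117, 122 and 129 CPM) but gave 0.20 ± 0.11 with an adjusted p of 0.157, and Kcnq1ot1, at 280, 300.0, 292 and 319 CPM in mature against 340, 351, 294 and 313 CPM in resting cells, gave -0.17 ± 0.08 with an adjusted p of 0.101 (edgeR), lower in 3 of 4 with Parse sample 4 in the opposite order, so neither was called. The mature gate held 706 WT and 351 Mini cells. The difference between kits was not tested.

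The lists of related genes moved as follows in the same fits. Genes are called maternally or paternally expressed by the list that holds them. The parental copy was not measured here, and whether these genes are imprinted in thymocytes was not tested. Of other maternally expressed imprinted genes, 10 of 20 were tested in WT cycling cells, of which 2 rose and 2 fell (median log2 fold change -0.06, against 0.01 over all genes), and 9 in Mini, of which 2 rose and 1 fell. Gnas, which encodes a G protein alpha subunit, rose in both kits (0.44 and 0.41), as did Tssc4 (0.63 and 0.86), and H13, a signal peptide peptidase gene, fell (-0.31 and -0.36). The background was 27.4% higher and 23.7% lower in WT and 27.1% and 24.9% in Mini. Of the paternally expressed genes, 1 rose and 5 fell of 10 tested in WT, and 1 rose and 3 fell of 11 in Mini, with Jade1 rising (0.67 and 1.00) and Airn and the Polycomb-related gene Sfmbt2 (-0.58 and -0.60) falling in both. In mature cells, where 18.1% of all genes rose and 15.6% fell in WT and 15.7% and 14.5% in Mini, 1 maternally expressed gene rose and 1 fell of 9 tested in WT, and 2 rose and 2 fell of 8 in Mini. Of 7 paternally expressed genes tested there, 3 rose and 0 fell in WT, and 3 rose and 2 fell in Mini, Jade1 (-0.87) and Airn (-0.23). The Airn call was lost without sample 2-A (adjusted p = 0.291, edgeR) or 2-B (0.102) and in 4 further alternatives, among them cells of at least 2000 UMIs (0.350) and DESeq2 (0.143). Gnas (0.45 and 0.34), Sfmbt2 (1.19 and 1.17), Inpp5f (1.21 and 1.86) and Phactr2 (1.69 and 1.86) rose and H13 fell in both kits.

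Of 12 genes that keep imprints through cell division, 9 were tested in cycling cells and 6 rose in each kit, the maintenance DNA methyltransferase Dnmt1 (1.94 in WT and 1.93 in Mini, log2), its partner Uhrf1 (3.46 and 3.80), the corepressor Trim28 (0.76 and 0.80), Setdb1 (0.21 and 0.27), Smchd1 (0.79 and 0.96) and the insulator protein gene Ctcf (0.67 and 0.72). One of the 9 fell in WT (Ehmt1) and none in Mini, while 27.4% and 27.1% of all genes tested rose and 23.7% and 24.9% fell. In the IGF axis 1 of 5 tested genes was called in cycling cells of each kit, the insulin receptor gene Insr (-0.43 and -0.53). Among other cyclin-dependent kinase inhibitor genes, Cdkn2c (2.98 and 3.21) and Cdkn2d (0.44 and 0.56) rose and Cdkn1b (-0.12 in both), of the same family as Cdkn1c, fell in cycling cells. In mature cells 18.1% of all genes rose and 15.6% fell in WT, and 15.7% and 14.5% in Mini. There 2 of 9 imprint genes rose and 2 fell in WT, and 1 rose and 1 fell in Mini. Of the IGF axis 2 of 5 rose and 2 fell in WT, and 0 of 4 rose and 1 fell in Mini. Of 2 kinase inhibitors tested there, 1 fell in each kit. From a list of 9 fetal growth genes, Hmga2 among them, 4 were tested, and 1 rose and 1 fell in cycling cells of each kit. In mature cells 1 of these 4 rose and 0 fell in WT, and 0 rose and 0 fell in Mini.

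In DN-like cells the same lists gave levels without a test. Igf1r, the receptor through which IGF2 signals, was at 301 ± 57.6 CPM in WT and 313 ± 24.0 CPM in Mini against 196 ± 18.9 and 201 ± 7.17 CPM in all other cells, higher in 8 of 8 samples, and the insulin receptor gene Insr was lower in 8 of 8 (226 ± 32.7 against 245 ± 27.0 CPM in WT and 269 ± 3.62 against 286 ± 1.43 CPM in Mini). The kinase inhibitor gene Cdkn1a was at 19.8 ± 7.38 and 10.7 ± 3.78 CPM against 2.16 ± 0.261 and 1.63 ± 0.684 CPM, and Hmga2, a chromatin protein gene of fetal stem cells, at 9.08 ± 1.85 against 1.30 ± 0.350 CPM in WT, where Treg-like cells held more (28.1 CPM), and at 3.62 ± 5.58 against 0.494 ± 0.291 CPM in Mini, higher in 2 of 4 samples. Of the other 8 genes of the fetal list, Hmga1 was higher in 8 of 8 samples (39.9 ± 12.7 against 25.5 ± 6.24 CPM in WT), while Arid3a (11.3 ± 2.46 against 14.3 ± 1.65) and Arid3b (46.5 ± 8.11 against 77.5 ± 11.1) were lower in 8 of 8. Levels of the remaining genes of the fetal list and of the IGF axis in DN-like cells are not given here. Cdkn1b was lower in DN-like cells in 8 of 8 samples (96.1 ± 6.62 against 145 ± 21.3 CPM in WT).

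The 16 other WT samples held 86786 cells, 5405078 to 91172408 UMIs each, and 79827 kept cells that formed B cell-like, T cell-like, erythroid-like and myeloid-like classes and 3187 cells named DP-R-like (1774 under a coarser clustering). That class was the shallowest, with a median of 1049 UMIs per cell against 1918 or more in the others. It joined 1788 cells with 8 of 8 DP-R markers raised, Rag1 and Dntt among their leading genes, to 1399 cells with 6 of 8 raised, whose depth was, at the median, 0.244 times the median of their own sample. Its pooled Airn level was 234 CPM, against 621 CPM in thymic DP-R-like WT cells. H19 was all but missing over all kept cells of the 16 samples, with 11 UMIs in 11 cells of 8 samples (pooled 0.0416 CPM, Poisson 95% interval 0.0208 to 0.0745, counting error only), of which 5 lay in DP-R-like cells. In the DP-R-like cells alone the pooled level was 1.88 CPM, with 0 to 8.15 CPM over samples and a median of 0. No DN-like class was formed there. Over all cells, Igf2 had 27 UMIs, Cdkn1c 51, Plagl1 97, Meg3 129 and Grb10 645, and Peg13 had none.

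Grb10 and Meg3 again sat in particular classes. Grb10 had 237 of its 337 kept UMIs in 694 mast, basophil or progenitor-like cells (pooled 56.0 CPM, Poisson interval 49.1 to 63.6, and 33.8 CPM under a finer clustering, while a coarser one formed no such class), with 12.6 to 96.2 CPM and a median of 65.9 over the 13 samples with at least 20 such cells. Meg3 had 49 of 111 kept UMIs in macrophage-like cells (pooled 10.7 CPM, interval 7.89 to 14.1), where the samples ranged from 0 to 70.7 CPM with a median of 3.75. Kcnq1ot1 was found in every class, with sample medians from 149 CPM in monocyte-like to 545 CPM in mast, basophil or progenitor-like cells. Igf2r was high in CD8 T cell-like (99.7 to 243 CPM, median 140), neutrophil-like (median 108) and NK-like cells (natural killer, median 106) and low in B cell-like cells (12.7 to 57.1 CPM, median 28.1). Airn was high in CD8 T cell-like (median 408) and plasma cell-like cells (median 291) and low in B cell-like cells (median 20.1), and in neutrophil-like cells it was low (median 46.2) where Igf2r was high.

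**Figure D5:**
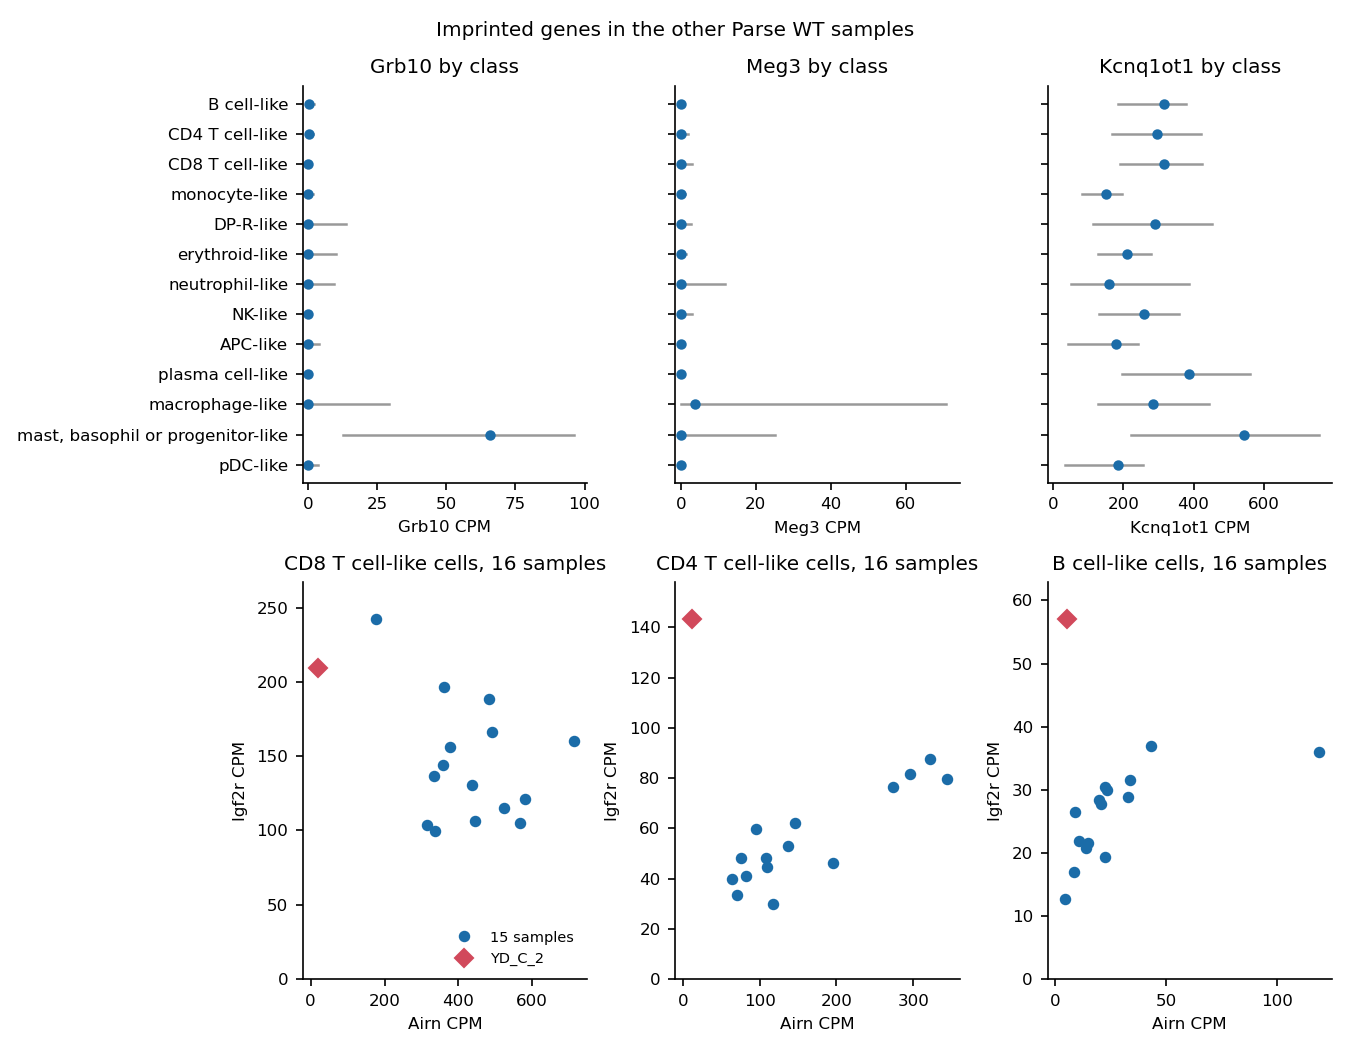
The 16 other WT samples: Grb10, Meg3 and Kcnq1ot1 levels (CPM, horizontal axes) by class (vertical axis), with the median as a point and the range over samples as a line, and Igf2r against Airn (both CPM) in CD8 T, CD4 T and B cell-like cells, with a point per sample and YD_C_2 as a diamond. In CD4 T cell-like cells 1 sample lies apart, at 11.99 CPM of Airn and 144 CPM of Igf2r, while the other 15 hold 63.3 to 344 and 29.9 to 87.7 CPM.

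One of these samples, named YD_C_2, stood apart in Airn and Igf2r. It was singled out after its values were seen. Over all kept cells it held 157 Airn UMIs (7.79 CPM), where the other 15 samples held 27.4 to 189 CPM (median 69.5), and 2193 Igf2r UMIs (109 CPM), where the others held 19.2 to 61.2 CPM (median 42.7). Its Kcnq1ot1 level of 307 CPM lay within the range of the others (173 to 344 CPM). The 2 overlapping genes thus differed in opposite directions, with 14.0 Igf2r UMIs per Airn UMI against 0.32 to 0.70 in the others. In CD8 T cell-like cells Airn was at 19.1 CPM against 176 to 714 CPM, and Igf2r at 209 CPM was above 14 of the other 15 samples (99.7 to 243 CPM). In cluster 1, 4752 cells led by the regulatory T cell gene Foxp3 that stayed unnamed because the CD4 T cell markers were as high, Airn was at 3.26 against 67.1 to 380 CPM and Igf2r at 187 against 38.0 to 128 CPM. In plasma cell-like cells, of which 13 other samples held at least 20, they were at 5.12 against 171 to 635 CPM and 197 against 43.2 to 169 CPM. B cell-like cells held Airn at 5.18 CPM, above 1 other sample (4.35 to 119 CPM), and Igf2r at 57.1 against 12.7 to 36.9 CPM. The sample was below all others for Airn and above all others for Igf2r in each of 9 sublibraries, and its 2 wells gave 7.63 and 7.96 CPM of Airn. Among 6517 genes with a median of at least 20 CPM over the other samples in CD4 T cell-like cells, 224 were below and 148 above all other samples. In these genes, and in 6189 such genes in CD8 T cell-like cells, Airn was the only one at or below 1/5 of the lowest other sample. In B cell-like cells 0 of 6433 such genes met that rule, so Airn did not meet it there. Of other imprinted genes in CD4 T cell-like cells, Gnas (150 against 164 to 336 CPM) and Blcap (9.13 against 12.8 to 34.7 CPM) were below the range of the others.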

How the data were processed

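UMI counts per gene and cell were deposited by the authors as sparse matrices for 2 Parse kits, made with split-pipe on mm10 with an Ensembl annotation (no source used here states versions or the strand setting). The counts are not normalized. The cell tables name the tissue sample of each cell, and samples were grouped by those names. Members and gene lists were chosen with earlier results of these data known.

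Cells were kept if they held 500 to 25000 UMIs, of which no more than 15% were mitochondrial, and called doublets were removed (1895 WT thymic, 971 Mini and 1569 in the other samples). Cells were scored against simulated doublets, and the number called per sample was set in advance by an expected rate. The called share was 1.46 to 6.84% per WT thymic sample and 4.46 to 5.44% per Mini sample. The study called a larger share of both libraries with another method. Thymic cells were normalized by SCTransform (sctransform 0.4.2) and integrated by reciprocal PCA (Seurat 5.3.0), without imprinted genes. Clusters were named from 24 marker lists where at least 3 markers were raised 1.25 times. The other samples were clustered by the Leiden method (leidenalg 0.10.2) on principal components of log counts scaled within each sample, also without imprinted genes. CPM leaves out 3 ribosomal RNA genes. Thinned shares are the exact hypergeometric expectation at 1000 UMIs. A count of 0 allows 3 counts. Gene levels were summed per lobe and gate and tested by edgeR 4.0.16 (quasi-likelihood, TMM, filterByExpr) in R 4.3.3, with Benjamini-Hochberg adjustment and a threshold of 0.05, and DESeq2 1.42.0 served as an alternative. Both gates of a contrast come from the same lobe, so the lobe was a block: deviations of same-lobe sums from the group means correlated at 0.139 to 0.505 in WT and 0.0525 to 0.203 in Mini. The edgeR step was tested on simulated data. With the lobe as a block, p-values measure how consistent the difference between gates was over 4 lobes of 2 mice. Named genes were the 9 members, the genes that overlap or neighbour them, genes of fixed lists that were called in both kits or held at least 100 UMIs in 1 kit, the 5 genes most like H19 by class in each kit, and gate and marker genes that define a group. The alternatives were 67 planned settings, and 2 added after the data were seen for the sample with the lowest Airn.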

Additional observations from a re-analysis of the deposited data

Results flagged for a closer look

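In Parse sample 1, Igf2r in SP-CD4-like cells was at 163.4 CPM, far from the 114.3 to 119.1 CPM of the other 3 samples. In Mini sample 2-B the same measure was at 152.0 CPM, apart from 141.3 to 141.7 CPM in the others. Meg3 in all cells other than DN-like was at 0.628 CPM in Parse sample 4 against 0.0332 to 0.125 CPM in the others, where the mesenchymal-like cells of that sample held part of its UMIs. These are 3 of 45 groups of 4 samples checked with Dixon's criterion, which chance alone would flag in about 1 of 20 groups.

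H19 was also present in cells left out of the levels above. In WT, 349 H19 UMIs lay in 2423 cells over 25000 UMIs and 131 in called doublets, and in Mini 97 lay in 743 such cells and 30 in called doublets. One barcode of Parse sample 4, with 26418 UMIs and a doublet call, held 41 of the 63 Igf2 UMIs of the WT thymic samples, 27 H19 UMIs, 60 of Zbtb16 and 62 of Gnas, and none of Il2ra. Without it, Igf2 had 22 UMIs in the 41838 cells.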

How the results depend on the processing

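The DN-like level of H19 was above that of all other cells in every sample of both kits under each clustering, filter, denominator and gate run, and without each sample in turn. In WT it was 76.4 CPM by the DN gate, 33.0 with cells over 25000 UMIs kept and 82.3 as a mean over cells. The Mini ratio to other cells was 33.1, 55.7 and 244 under the same settings, where the gate was set against all kept cells outside it, DN-like cells included. The share of DN-like cells with an H19 UMI was 6.18% thinned to 2000 UMIs and 12.4% unthinned in WT, and 11.7% and 19.7% in Mini. Kcnq1ot1 in DN-like cells was 342 CPM in WT and 411 in Mini over all UMIs and 587 in Mini by the DN gate. Igf2r in Mini DN-like cells was 75.9 over all UMIs and 69.3 by the DN gate. Of the 5 genes most like H19, Spearman correlation kept 0 in each kit and a minimum of 1000 UMIs kept 3 in each. A coarser clustering formed no mast, basophil or progenitor-like class, so Grb10 has no value there, and a finer one gave 33.8 CPM.

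Without the replicate block, 3842 genes were called in WT cycling cells (6100 with it), 2856 in WT mature (3322), 5104 in Mini cycling (5926) and 2781 in Mini mature cells (2750). The unpaired fit also lost the WT cycling calls of Igf2r (adjusted p = 0.152, edgeR) and Kcnq1ot1 (0.296). DESeq2 called 3717 genes in Mini cycling cells and lost the Mini mature calls of Igf2r (adjusted p = 0.120) and Kcnq1ot1 (0.0860). No filter on low counts lost the Mini mature call of Igf2r (adjusted p = 0.261, edgeR) and gained that of Kcnq1ot1 in WT (0.00258). No call of Igf2r, Kcnq1ot1 or Airn reversed in these tests between gates. For levels by class, the order against all other cells under the alternatives is reported only for H19 and, by the DN gate, for Plagl1. WT Plagl1 was at 0.714 CPM in DN-like cells, below the 1.14 CPM of all other cells, but at 2.73 CPM by the DN gate. Each of these DN levels rested on 4 UMIs. The causes of these changes were not tested. Igf2, Meg3, Grb10, Plagl1 and Cdkn1c had too few UMIs in thymocytes for a test.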

Other observations

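The Airn and Igf2r levels over all kept cells of the 16 other WT samples were as follows, as values of samples without a group. Samples CVS_C_1 to CVS_C_5 held 84.7, 43.2, 27.4, 66.9 and 61.3 CPM of Airn and 42.7, 29.9, 19.2, 40.4 and 41.9 CPM of Igf2r. Samples CVS_S_1 to CVS_S_6 held 127, 69.5, 55.1, 84.9, 62.1 and 50.3 CPM of Airn and 45.6, 46.4, 37.9, 46.4, 40.6 and 35.1 CPM of Igf2r. Samples YD_C_1, YD_C_3, YD_C_4 and YD_C_5 held 166, 165, 181 and 189 CPM of Airn and 58.6, 60.2, 58.0 and 61.2 CPM of Igf2r, and YD_C_2 held 7.79 and 109 CPM. In YD_C_2 the values were 7.22 and 110 CPM with all cells kept and 7.49 and 110 CPM in cells of at least 2000 UMIs, settings added after the data were seen.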
